A study of Arabidopsis thaliana with 9 samples.

Results

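Arabidopsis gene numbers were first given in steps of 10, and loci recognised later were inserted between them with numbers that do not end in 0. The loci described here are the inserted loci that the array represented by 1 transcript version, or by a name without a version, apart from AT3G25795 and AT3G29644, which were left out. These were 259 of the 5154 transcripts on the array, covered by 768 of its 15013 probes, and each locus was read through its brightest probe. Apart from these exceptions the choice used locus names and version numbers. AT3G29644 has 2 versions on the array and so would not have entered, while AT3G25795 was not called in either mutant against WT and was 0.90 ± 0.14 higher in se-2 than in cbp20 cbp80 (limma adjusted p = 0.00393). In the reference gene table (TAIR10.1) 137 of them are lncRNAs, 102 are ncRNAs, 9 are protein-coding, 4 are miRNA genes, 2 are antisense RNAs and 1 is a pseudogene, and 4 were not found there. The records of 147 loci overlap that of a protein-coding gene, and 36 of these lie inside it. The table as used here has no strand, so sense and antisense overlap cannot be told apart. No probe sequence was used here.

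Seedlings of Arabidopsis thaliana, aged 2 weeks and grown under long days, were compared in 3 genotypes with 3 biological replicates each. They were the wild type Col-0 (WT), the SERRATE mutant se-2 and the double mutant cbp20 cbp80, in which the genes of both nuclear cap-binding subunits are mutated. Total RNA labelled with Cy3 was hybridised to a one-colour array. Each of the WT arrays lay on a slide of its own, while the 6 mutant arrays shared another slide and 1 scan, so slide and genotype cannot be told apart in any difference from WT.

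The cap-binding complex binds the cap of RNA polymerase II transcripts in the nucleus, and SERRATE is a zinc finger protein that interacts with it. Together they act in the cutting of miRNA precursors by the Dicer enzyme DCL1 and in pre-mRNA splicing, and noncoding transcripts of RNA polymerase II carry the same cap. Several plant lncRNAs have described roles. ASCO binds nuclear speckle RNA-binding proteins that act in alternative splicing, FLORE is a circadian transcript antisense to the flowering regulator gene CDF5, and ELENA1 acts in the immune response.

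A spot was taken as measured where the scanner software marked it well above background. The array counts of such probes ran from 2192 to 3711, and precision is limited by having 3 arrays per genotype. The brightest probe was well above background on all 3 WT arrays for 189 loci (73% against 19.5% of all transcripts). On all 3 se-2 arrays this held for 214 loci (82.6% against 32.1%), and on all 3 cbp20 cbp80 arrays for 200 (77.2% against 27.2%). On all 9 arrays this held for 179 of the 259 loci (69.1%), against 18.1% of all transcripts of the array, while 65 loci were measured on some arrays and 15 on none. Tested were the 218 loci measured on all 3 arrays of at least 1 genotype, which is 84.2% of them against 33.3% of all transcripts. The array carried no probe named for SERRATE, CBP20 or CBP80, so the mutated genes could not be checked on it.

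Levels are given as scaled log2 signals, that is the log2 of the background-subtracted signal minus the 75th percentile of the probes measured on every array, so that 0 marks a probe at that percentile. Over the tested loci the median of the 9 arrays ran from -7.02 to 6.44, with a median of -1.87. Signals of different probes do not rank amounts of RNA, and each locus is compared below only with itself. The 5 loci with the brightest probes were AT1G15405, AT1G25175, AT1G10682, AT1G69252 and AT3G12965, all ncRNAs. In WT the signal of AT1G15405 was 6.70, 7.31 and 6.05, in se-2 it was 5.91, 5.88 and 5.91, and in cbp20 cbp80 it was 6.46, 6.51 and 6.44. The se-2 arrays thus lay below all others, at -0.57 ± 0.042 (SE, n = 3) from cbp20 cbp80 (limma adjusted p = 0.000356), while the difference from WT of -0.78 ± 0.47 did not pass (adjusted p = 0.482 by limma). AT1G25175, which overlaps the protein-coding AT1G25180, differed least from WT among these 5 in cbp20 cbp80, at -0.0015 ± 0.35.

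The spread between arrays was not alike in the genotypes. Over the tested loci the SD had a median of 0.452 for WT, 0.0572 for se-2 and 0.0703 for cbp20 cbp80, and 192 of the 218 loci varied more in WT than in both mutants. Over all probes tested the medians were 0.544, 0.0856 and 0.108, so the pattern was not particular to these loci. The WT arrays lay on 3 slides and the mutant arrays on 1, so slide and genotype cannot be told apart here either. WT replicates 1 and 2 were also extracted with another software version than the mutants, and WT replicate 3 with another protocol. These cannot be told apart from genotype either. The SD in WT was above 1 for 27 loci. The largest was that of AT3G13061, which overlaps ECT5, the gene of a YTH-domain RNA-binding protein. Its WT arrays stood at -2.62, 0.52 and -4.34, and all 6 mutant arrays lay inside that range. AT3G61198, next to BAP1, varied likewise, at -2.63, 0.18 and -3.29 in WT. For such loci a difference from WT could not be separated from the spread among WT arrays, and errors of a comparison with WT are several times those between the mutants.

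**Figure D1:**
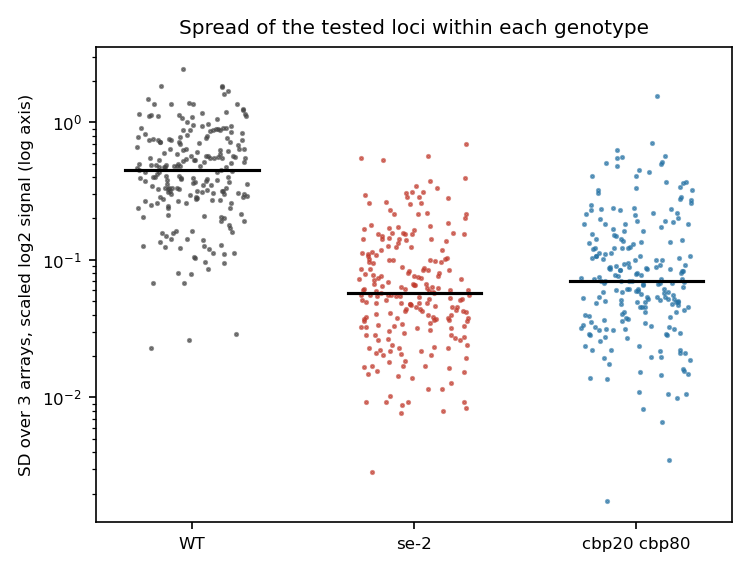
Each point is the SD of 1 of the 218 tested loci over the 3 arrays of a genotype, in scaled log2 signal on a log axis, and black lines are medians. The WT points centre on 0.452, and those of se-2 and cbp20 cbp80 on 0.0572 and 0.0703.

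The comparison of se-2 with WT asked which of these transcripts depend on SERRATE. In limma's fit with the slide as a random block, 6 of the 218 tested loci were higher in se-2, against a background of 5.54% over all transcripts tested, and 3 were lower, against a background of 1.28%. The other 209 did not pass, and 37 loci (17% against 14.7% of all transcripts) had an unadjusted p under 0.05. The shares among the loci were 2.75% higher and 1.38% lower. Their median change was -0.10, with quartiles at -0.69 and 0.38, where all transcripts had a median of 0.011. In the same fit 68 of 126 miRNA precursors were higher and 1 was lower, 19 of 1159 transcription units were higher and 11 lower, and of 126 transcripts of inserted loci with several versions 0 were higher and 1 was lower.

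For cbp20 cbp80 against WT the counts were again 6 loci higher, beside a background of 4.96%, and 3 lower, beside a background of 0.641%, while 209 did not pass and 36 (16.5% against 14.1% of all transcripts) had an unadjusted p under 0.05. Their changes had a median of 0.054, against 0.25 for all transcripts. Of the miRNA precursors 55 were higher and 1 was lower, and of the transcription units 22 were higher and 4 lower. Both comparisons use the same 3 WT arrays, so values in the 2 mutants are set side by side and not counted as support for each other. With arrays alone and no test, 45 loci had all se-2 arrays above all WT arrays and 69 had them below (backgrounds of 23.4% and 26.3%). For cbp20 cbp80 these counts were 54 and 60 (backgrounds of 28.9% and 18.5%).

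A fit that treats arrays of the shared slide as independent gave many more calls. Without the slide se-2 had 32 higher and 53 lower loci (backgrounds of 18.1% and 19.5%), and cbp20 cbp80 had 38 and 48 (backgrounds of 24.4% and 14%). Slide, scan and genotype moved together in these counts, and their parts were not tested.

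**Figure D2:**
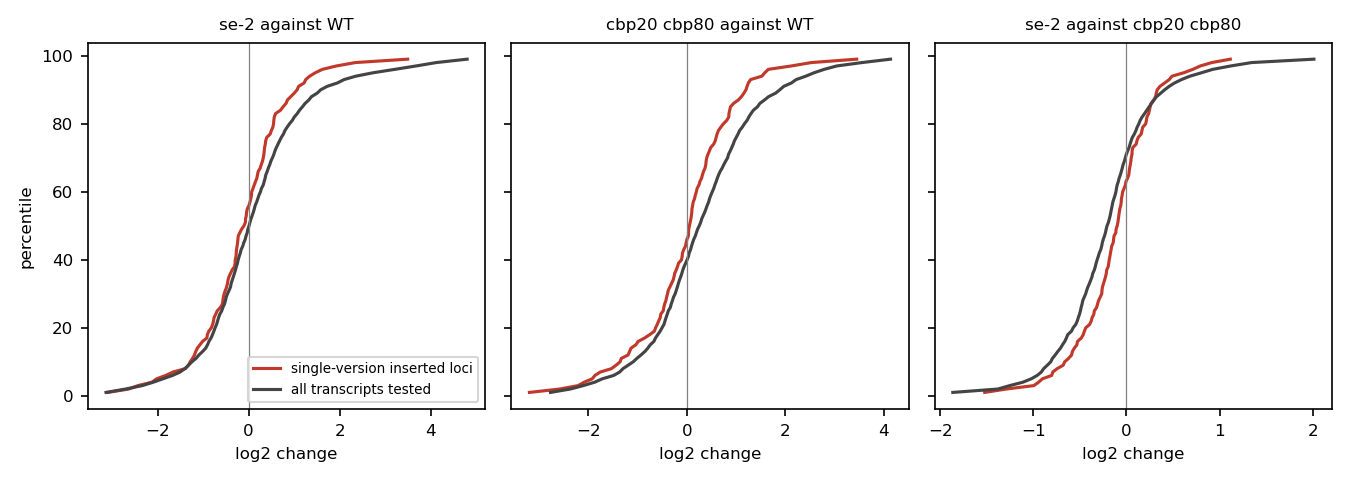
The panels show percentiles 1 to 99 of the log2 change in each comparison, for the 218 tested loci (red) and for all 1715 transcripts tested (grey). The grey curve extends farther to the right in all 3 panels, and between the mutants the red median of -0.10 lies above the grey one of -0.21.

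Called in both mutants with the slide as a block were 3 of the 218 loci as higher and 2 as lower. Over all transcripts tested these shares were 4.37% and 0.466%. Loci that rose in both mutants were led by AT2G07042, an ncRNA between PRK2A, a receptor kinase gene, and CAS1, the gene of the sterol enzyme cycloartenol synthase. Its WT arrays stood at -3.18, -1.92 and -1.84, its se-2 arrays at 2.03, 1.94 and 1.93, and its cbp20 cbp80 arrays at 2.31, 2.33 and 2.35. Every mutant array lay more than 3 units above every WT array. It rose by 4.28 ± 0.54 (19.4-fold) in se-2 (limma adjusted p = 0.0024), and by 4.64 ± 0.54 (25-fold) in cbp20 cbp80 (adjusted p = 0.00308). All 3 of its probes were called in both mutants.

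The lncRNA AT5G15845 has a record that overlaps CO (CONSTANS), a transcription factor gene of the photoperiod pathway of flowering, its relative COL1, AT5G15853 and PCME, a methylesterase gene. In WT the signals were -2.96, -3.15 and -2.20, in se-2 they were 0.98, 0.92 and 0.93, and in cbp20 cbp80 they were 0.80, 0.81 and 0.90. The mutants lay close together and far above WT. The rise was 3.71 ± 0.44 (13.1-fold) in se-2 and 3.60 ± 0.44 (12.2-fold) in cbp20 cbp80 (limma adjusted p = 0.00187 and 0.00342). All 3 probes were called in both, with changes of 2.85 to 3.71 in se-2. Which of the overlapping genes a probe also reads was not tested.

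The precursor locus of MIR167a (AT3G22886) was the third that rose in both. miR167 directs the cutting of the mRNAs of the auxin response factors ARF6 and ARF8. The locus stood at -2.74, -2.78 and -2.19 in WT, at 1.1, 1.05 and 1.15 in se-2, and at -0.06, -0.01 and -0.06 in cbp20 cbp80, so that the 3 genotypes formed 3 separate levels. It rose by 3.67 ± 0.38 (12.8-fold) in se-2 and by 2.53 ± 0.38 (5.76-fold) in cbp20 cbp80 (limma adjusted p = 0.00102 and 0.00832). The call in cbp20 cbp80 ended with no filter on dim probes (adjusted p = 0.0558) and with the replicate number as a block (0.071), and that in se-2 held in all 16 alternatives. Within the mutants' slide it was 1.15 ± 0.047 higher in se-2 (adjusted p = 4.77e-05 by limma).

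The array also held the loci of the other family members. MIR167d (AT1G31173) stood at -1.62, 0.17 and -2.53 in WT and between 0.91 and 1.09 on all mutant arrays. No WT array reached the mutants, yet the changes of 2.37 ± 0.87 in se-2 and 2.34 ± 0.87 in cbp20 cbp80 did not pass (limma adjusted p = 0.204 and 0.224). Without WT replicate 2, its brightest WT array, the changes were 3.12 and 3.08 and passed, with adjusted p-values of 0.00475 and 0.00551. In 13 of 16 alternatives the se-2 change did not pass, including WT replicate 1 or 3 left out (limma adjusted p = 0.3 and 0.121). The change in cbp20 cbp80 did not pass in 14 of 16. MIR167b (AT3G63375), with 1 probe, differed from WT by 0.57 ± 0.40 in se-2 and 0.10 ± 0.40 in cbp20 cbp80, and MIR167c (AT3G04765), also with 1 probe, by 1.0 ± 0.66 and 0.59 ± 0.66. None of these 4 changes passed.

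Between the mutants, where the spread was smaller, MIR167b was 0.47 ± 0.064 higher in se-2 and MIR167c 0.41 ± 0.12 (limma adjusted p = 0.00298 and 0.0332), while leaving out cbp20 cbp80 replicate 3 or any of the se-2 arrays ended the call of MIR167c (adjusted p = 0.0514 to 0.102). MIR167d differed by 0.031 ± 0.063 (adjusted p = 0.706). Its 3 probes ranged from 0.0026 to 0.052. Separate precursor probes on the array gave 1.16 ± 0.047 for MIR167a, 0.50 ± 0.069 for MIR167b and -0.21 ± 0.041 for MIR167d in the same comparison. MIR167a and MIR167b thus had the higher signal in se-2 by both sets of probes, and MIR167d did not.

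**Figure D3:**
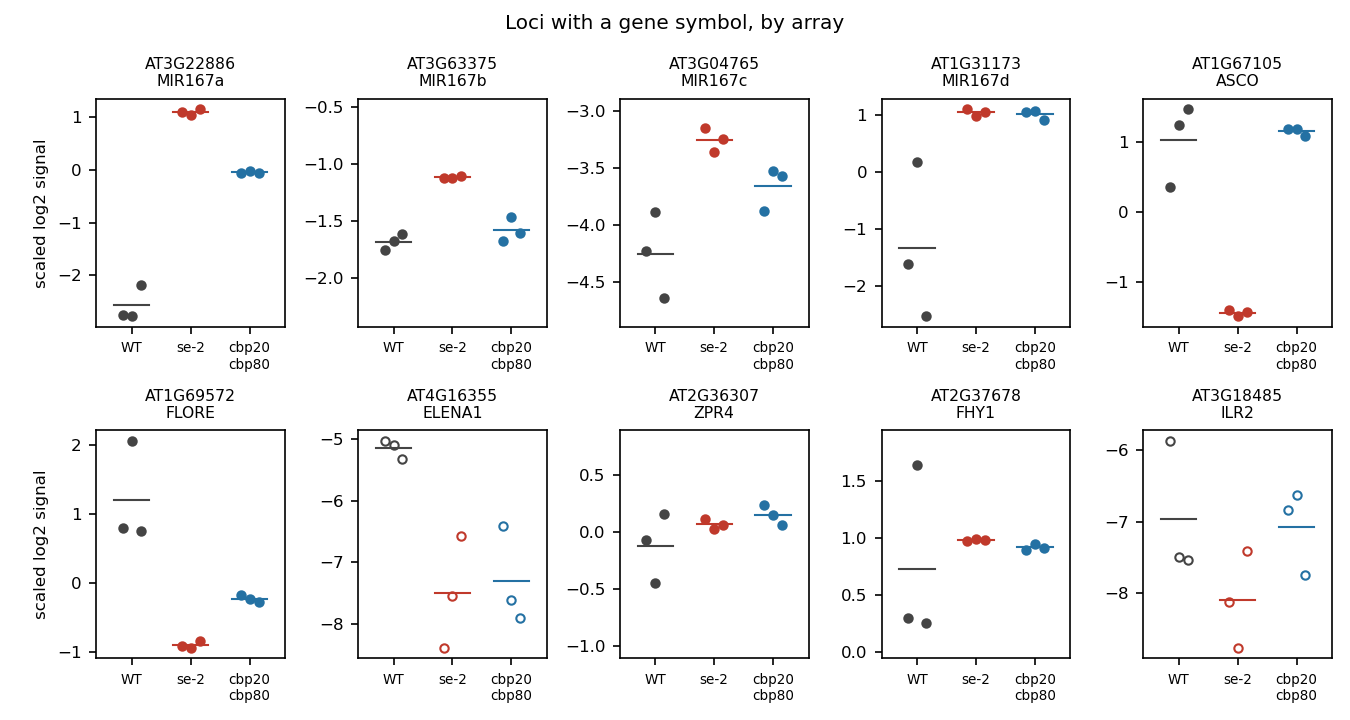
Scaled log2 signal of the 10 loci with a gene symbol, with a point per array and a line at each genotype's mean. Open circles mark a genotype in which not all 3 arrays were well above background. MIR167a and MIR167d lie higher in both mutants, ASCO lies lower in se-2 only, and the open circles of ELENA1 and ILR2 are at or near background. The vertical axes differ between panels.

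Of the described noncoding RNAs searched for, the array held ASCO, FLORE and ELENA1 among these loci. ASCO (AT1G67105), which lies between LBD40 and the cytokinin hydroxylase gene CYP735A2, stood at 0.36, 1.25 and 1.47 in WT, at -1.40, -1.50 and -1.44 in se-2 and at 1.18, 1.19 and 1.09 in cbp20 cbp80. Only the se-2 arrays were apart from the others. It fell by 2.47 ± 0.48 (5.55-fold) in se-2 (limma adjusted p = 0.0183), and all 3 probes were called. In cbp20 cbp80 it differed from WT by 0.13 ± 0.48 (adjusted p = 0.947). The direct difference between the mutants was -2.60 ± 0.052 (6.07-fold, adjusted p = 5.62e-06 by limma), the largest in size of all 218 loci, and it was called in all 16 alternatives. The fall against WT was not called with the percentile over all probes, without a filter on dim probes or with the replicate number as a block.

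FLORE (AT1G69572) stood at 0.80, 2.06 and 0.76 in WT, at -0.91, -0.94 and -0.83 in se-2 and at -0.17, -0.22 and -0.27 in cbp20 cbp80. Both mutants lay below all WT arrays without overlap. The differences of -2.10 ± 0.54 and -1.43 ± 0.54 did not pass (adjusted p = 0.0629 and 0.234 by limma), while 2 of its 3 probes did in se-2. Without WT replicate 2 or 3 the difference in se-2 was -1.68 or -2.33 and passed, with adjusted p-values of 0.0101 and 0.0185. It did not pass without WT replicate 1 (limma adjusted p = 0.0567) or any 1 of the se-2 arrays (0.098 to 0.112). In all, the difference did not pass in 10 of 16 alternatives in se-2 and in 15 of 16 in cbp20 cbp80. Between the mutants it was lower in se-2 by -0.67 ± 0.051 (adjusted p = 0.000389 by limma). Its record overlaps that of the protein-coding AT1G69570. The hour of collection, which would bear on a circadian transcript, is not given in the sources used here.

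ELENA1 (AT4G16355) was near background and was not tested. It was well above background on 2 WT arrays and on no mutant array, at -5.03, -5.10 and -5.32 in WT. Against the lowest measurable signals of the mutant arrays it was 3.02-fold lower in se-2 and 1.89-fold lower in cbp20 cbp80. The WT mean in these folds includes an array that was not well above background, so they are not strict bounds.

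The other fall in both mutants with large size was that of AT3G22121, a lncRNA overlapping CWLP, which encodes a cell wall-plasma membrane linker protein. Its signals were 3.47, 3.56 and 3.08 in WT, 0.16, 0.24 and 0.31 in se-2, and -0.07, 0.19 and 0.12 in cbp20 cbp80. It fell by 3.13 ± 0.50 (8.76-fold) in se-2 and by 3.29 ± 0.50 (9.78-fold) in cbp20 cbp80 (limma adjusted p = 0.00778 and 0.00945). All 3 probes were called in both mutants, which did not differ from each other beyond the test (0.16 ± 0.084, adjusted p = 0.177). AT1G10682, one of the brightest loci, stood at 5.05, 5.57 and 5.05 in WT, near 3.16 in se-2 and near 3.46 in cbp20 cbp80. It fell by 2.06 ± 0.36 and by 1.76 ± 0.36 (limma adjusted p = 0.012 and 0.0282). The fall in cbp20 cbp80 lost its call in 8 of 16 alternatives, among them leaving out any 1 of its arrays (adjusted p = 0.0559 to 0.062), and that in se-2 in 4, including the authors' deposited values.

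**Figure D4:**
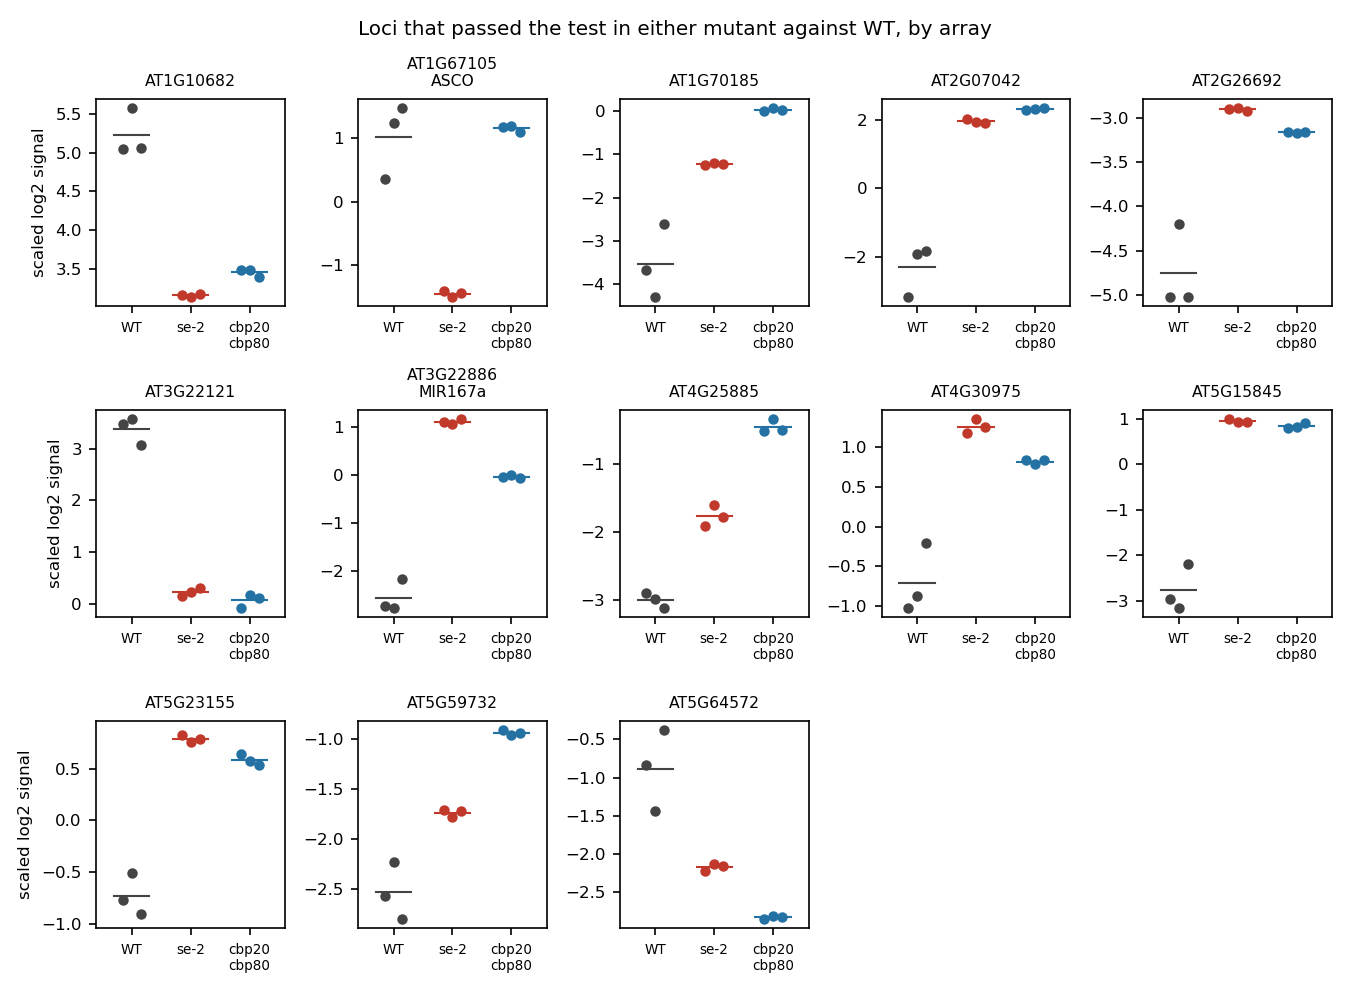
Scaled log2 signal of the 13 loci that passed the test in at least 1 mutant against WT, with a point per array and a line at each genotype's mean. In AT2G07042, AT3G22886 and AT5G15845 all mutant arrays lie far above WT, and in AT3G22121 and AT1G10682 far below. The vertical axes differ between panels, and the WT points spread most.

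In se-2 but not in cbp20 cbp80, 3 further loci passed as higher, all with mean signals in cbp20 cbp80 that also lay above WT. Of all transcripts tested 5.54% passed as higher in se-2 and 4.37% in both mutants, while the share in se-2 alone was not counted. AT4G30975, an ncRNA that overlaps AT4G30970, was at -1.03, -0.88 and -0.21 in WT, at 1.18, 1.36 and 1.26 in se-2 and at 0.84, 0.79 and 0.84 in cbp20 cbp80. The arrays of both mutants were above those of WT. It rose by 1.97 ± 0.45 in se-2 (adjusted p = 0.0385 by limma) and differed from WT by 1.53 ± 0.45 in cbp20 cbp80 (adjusted p = 0.112). AT2G26692, which overlaps AT2G26690, rose by 1.84 ± 0.40 in se-2 and differed from WT by 1.58 ± 0.40 in cbp20 cbp80. AT5G23155, which overlaps HUA2, the gene of a nuclear factor in flowering and pre-mRNA processing, rose by 1.52 ± 0.35 in se-2 and differed from WT by 1.31 ± 0.35 in cbp20 cbp80. The adjusted p-values by limma of these last changes were 0.0308 and 0.0666 for AT2G26692, and 0.0402 and 0.083 for AT5G23155. Within the shared slide all 3 loci were higher in se-2, by 0.44 ± 0.060, 0.26 ± 0.038 and 0.21 ± 0.048 in this order, with adjusted p-values of 0.00274, 0.00358 and 0.0176. The calls of all 3 against WT ended without WT replicate 1 (adjusted p = 0.0592 for AT4G30975, 0.0537 for AT2G26692 and 0.0567 for AT5G23155) and without se-2 replicate 2 or 3 (adjusted p = 0.0583 to 0.085), and AT2G26692 turned to -0.05 with normexp background correction. Of the 16 alternatives 6 ended the call of AT4G30975 and 7 that of AT5G23155, while 8 ended that of AT2G26692 beside the one that turned it.

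In cbp20 cbp80 but not in se-2, 3 loci passed as higher and 1 as lower. Of all transcripts tested 4.96% passed as higher in cbp20 cbp80 and 4.37% in both mutants, and 0.641% and 0.466% as lower. The share over all transcripts in cbp20 cbp80 alone was not counted. AT1G70185, an ncRNA between AT1G70180 and AT1G70190, was at -3.68, -4.30 and -2.62 in WT, at -1.25, -1.21 and -1.23 in se-2 and at 0.00, 0.07 and 0.03 in cbp20 cbp80. The genotypes formed 3 levels with cbp20 cbp80 on top. The rise in cbp20 cbp80 was 3.56 ± 0.57 (11.8-fold, adjusted p = 0.011 by limma), and se-2 differed from WT by 2.31 ± 0.57 (adjusted p = 0.0552). Only 1 of its 3 probes was called against WT, where the probes ranged from 1.45 to 3.56, but all 3 were lower in se-2 than in cbp20 cbp80. The call against WT ended with the mean of its probes (adjusted p = 0.204), with no filter on dim probes (0.0523) and with the replicate number as a block (0.0711).

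AT4G25885, a lncRNA that overlaps the Pumilio RNA-binding protein gene PUM6, stood at -2.89, -2.98 and -3.11 in WT, at -1.91, -1.61 and -1.78 in se-2 and at -0.52, -0.35 and -0.51 in cbp20 cbp80. It too formed 3 levels, and it was read by a single tested probe. It rose by 2.53 ± 0.54 in cbp20 cbp80 (adjusted p = 0.0325 by limma), and differed from WT by 1.22 ± 0.54 in se-2 (adjusted p = 0.297). Its call ended in 10 of 16 alternatives, among them any 1 of the cbp20 cbp80 arrays left out (adjusted p = 0.0567 to 0.0727), median scaling (0.0544), quantile normalization (0.0599), normexp (0.156) and the deposited values (0.063). AT5G59732, which overlaps the exocyst subunit gene EXO70H7, rose by 1.59 ± 0.35 in cbp20 cbp80 and differed from WT by 0.80 ± 0.35 in se-2. AT5G64572, which overlaps the beta-xylosidase gene XYL4, fell by 1.95 ± 0.44 in cbp20 cbp80 and differed from WT by -1.29 ± 0.44 in se-2. The adjusted p-values by limma were 0.0391 and 0.305 for AT5G59732 and 0.0409 and 0.158 for AT5G64572, and both calls in cbp20 cbp80 ended without WT replicate 1 (adjusted p = 0.0589 and 0.0712) or any 1 of the cbp20 cbp80 arrays (0.0812 to 0.0863). In all, the call of AT5G59732 ended in 11 of 16 alternatives, including median scaling, quantile normalization, normexp, the deposited values and the mean of its probes (adjusted p = 0.0681 to 0.364). That of AT5G64572 ended in 8, including the percentile over all probes (0.113) and the mean of its probes (0.0651).

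Some loci lay apart from WT on every mutant array, passed the test without the slide and did not pass with it. AT5G48775, which overlaps AT5G48770, was at -1.98, -1.75 and -2.0 in WT, between -4.42 and -4.23 in se-2 and between -4.74 and -4.29 in cbp20 cbp80. Its differences of -2.39 ± 0.71 and -2.64 ± 0.71 had adjusted p-values of 0.104 and 0.0834 by limma, and 1.91e-05 and 1.45e-05 without the slide. With the slide they passed without WT replicate 2 or 3 (adjusted p = 0.0137 to 0.0481), and in cbp20 cbp80 also without its replicate 2 (0.0249). In each mutant the difference did not pass in 11 of 16 alternatives. AT5G44562, which overlaps VPS2.2, an ESCRT subunit gene, was at -2.10, -2.49 and -3.21 in WT and between -5.66 and -4.70 on all mutant arrays, and its differences of -2.68 ± 1.23 and -2.45 ± 1.23 did not pass with the slide. AT5G40316 was measured on 1 WT array and on all mutant arrays, at -4.83, -2.77 and -5.97 in WT and between -1.92 and -1.53 in the mutants, with differences from WT of 2.63 ± 1.0 and 2.90 ± 1.0 (adjusted p = 0.223 and 0.184 by limma). The measured WT array was replicate 2, at -2.77, the WT array nearest to the mutants. Without it only dim WT arrays are left, against which se-2 was at least 11.4-fold and cbp20 cbp80 at least 13.7-fold higher. These bounds leave out the only measured WT signal and do not hold against it. A second probe of the locus, measured on all arrays, differed from WT by 0.20 and 0.23 and was not called.

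Signals that fell to background gave bounds only. Well above background on all 3 WT arrays and on no mutant array were 3 loci, AT2G41178, AT5G01732 and AT4G36052. The last, which overlaps AT4G36050, was at -4.60, -5.74 and -3.46 in WT and between -7.49 and -6.06 in the mutants, at least 4.68-fold lower in se-2 and at least 2.76-fold lower in cbp20 cbp80. A further 3, AT1G55525, AT3G14185 and AT4G00975, were measured on all WT arrays and on no cbp20 cbp80 array. No locus was measured on all mutant arrays and on no WT array. The same counts were not made over all transcripts, so these have no background to be read against.

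The 9 loci that the table lists as protein-coding included FHY1 (AT2G37678), whose protein acts in phytochrome A signalling, and ILR2 (AT3G18485), an auxin conjugate sensitivity gene. Of the 7 tested, limma called 0 in either mutant against WT with the slide as a block, where 4 in se-2 and 1 in cbp20 cbp80 had an unadjusted p under 0.05. With 6.82% and 5.6% of all transcripts called, and 14.7% and 14.1% at that unadjusted p, these 7 loci are too few for their counts to be read against the array. FHY1 was at 0.30, 1.64 and 0.25 in WT, between 0.97 and 0.99 in se-2 and between 0.90 and 0.95 in cbp20 cbp80, so all mutant arrays lay inside the WT range. AT1G65481 had the largest difference, at -0.56, -0.65 and 1.74 in WT, between -2.76 and -2.66 in se-2 and between -1.83 and -1.66 in cbp20 cbp80. It differed from WT by -2.88 ± 0.86 in se-2 (adjusted p = 0.106 by limma) and differed between the mutants by -0.97 ± 0.063 (adjusted p = 0.000225). AT1G24148 stood higher than WT on all mutant arrays, by 1.47 ± 0.60 and 1.61 ± 0.60 (adjusted p = 0.25 and 0.223 by limma). ILR2 and AT3G24542 were measured on no array. ZPR4 (AT2G36307), a name of a little zipper protein gene that the table lists as ncRNA, was between -0.45 and 0.24 on every array.

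The mutants were compared directly on their shared slide, where slide and scan are the same. Of the 218 loci 33 were higher in se-2, beside a background of 11.4%, 77 were lower, beside a background of 35.6%, and 108 did not pass limma's test. The shares among the loci were 15.1% and 35.3%. All se-2 arrays lay above all cbp20 cbp80 arrays for 45 loci and below them for 97 (backgrounds of 15% and 45.1%). With quantile normalization these counts were 74 and 71 (backgrounds of 28.1% and 24.8%). The median difference was -0.10, against -0.21 over all transcripts, -0.31 over transcription units and 0.46 over miRNA precursors. Most differences were small: with a call and more than a 2-fold difference there were 3 loci higher and 7 lower, or 4.59% of the loci against 7.7% of all transcripts.

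The split of these calls followed the scaling. It was 33 higher and 77 lower as reported, 70 and 45 with median scaling, 49 and 49 with quantile normalization, 50 and 37 with the authors' deposited values, 92 and 20 with the percentile over all probes, and 20 and 151 with normexp background correction. The median of all probes tested moved with it, from -0.15 as reported to 0.0013, 0.064, 0.086, 0.20 and -0.43 in this order. Of these 3103 probes 421 were higher and 1061 lower as reported. In the same order the other scalings gave 694 and 631, 713 and 526, 730 and 438, 1060 and 282, and 245 and 2495. Called under all 6 scalings were 18 loci that were higher and 18 that were lower in se-2, or 8.26% of the loci each, beside backgrounds of 6.59% and 7.87%. Among the former were MIR167a, MIR167b, AT2G15128, AT2G44798 and AT3G27884, and among the latter ASCO, FLORE, AT1G70185, AT4G25885, AT4G34332, AT5G26146, AT3G06962 and AT1G65481.

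Among the loci lower in se-2, AT5G26146, a lncRNA that overlaps AT5G26150, followed ASCO in size. It was at -4.72, -4.61 and -4.44 in se-2, at -2.83, -2.75 and -2.59 in cbp20 cbp80 and at -3.53, -2.95 and -5.60 in WT. The mutants were apart by more than their spread, the WT range held all se-2 arrays, and all cbp20 cbp80 arrays lay above the highest WT array. The difference was -1.87 ± 0.10 (3.65-fold, adjusted p = 0.000118 by limma). AT4G34332, which overlaps AT4G34330, differed by -1.55 ± 0.14, AT4G25885 by -1.30 ± 0.096 and AT1G70185 by -1.26 ± 0.042, with adjusted p-values of 0.000641, 0.000348 and 2.2e-05. Dimmer loci with larger errors were AT2G37555, which overlaps the ARF-GAP gene AGD7, at -1.01 ± 0.22, and AT3G06962, at -0.98 ± 0.15. AT2G37555 had 2 tested probes with opposite signs, and its call ended in 5 of 16 alternatives (adjusted p by limma up to 0.366). These were the percentile over all probes, quantile normalization, the deposited values, the mean of its probes and se-2 replicate 3 left out (0.0503). AT5G01732 was called as lower but was not well above background on any mutant array, so no fold is given.

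**Figure D5:**
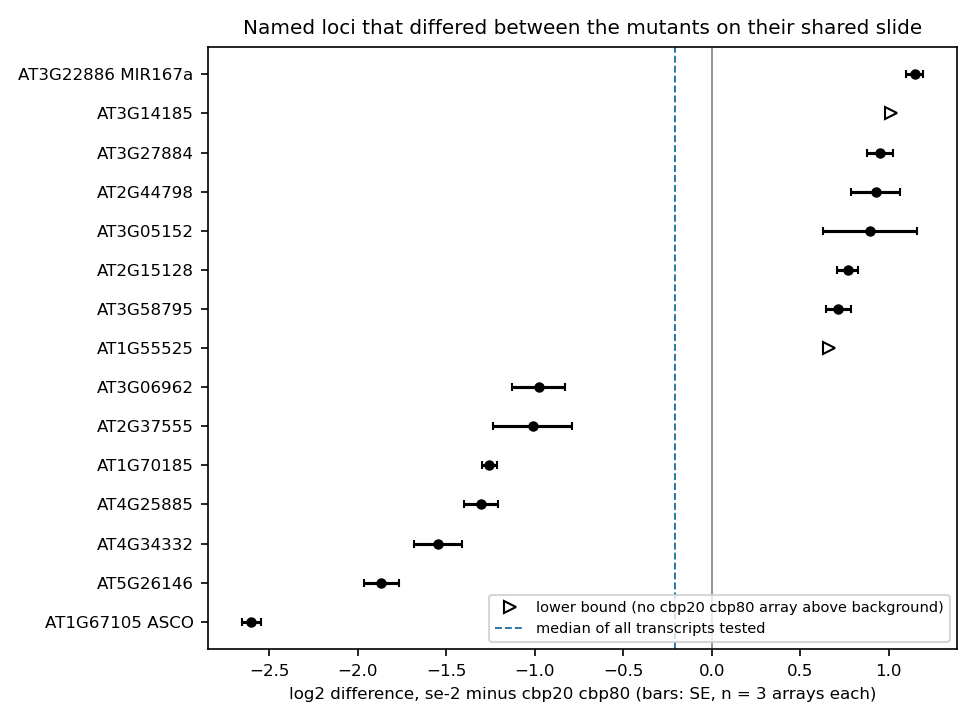
Log2 difference of se-2 minus cbp20 cbp80 for the loci named in each direction, as points with bars of 1 SE (n = 3 arrays each). Open triangles are lower bounds for AT3G14185 and AT1G55525, which were well above background on no cbp20 cbp80 array. The grey line marks 0 and the dashed line the median of all transcripts tested at -0.21. ASCO lies farthest to the left at -2.60, and MIR167a farthest to the right of the points at 1.15.

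Among the loci higher in se-2, MIR167a had the largest difference that was measured on all arrays of both mutants. For 2 others only a bound can be given, AT3G14185, next to ASIL2, and AT1G55525, next to TBP2, which encodes a TATA-binding protein. AT3G14185 was at -4.95, -5.14 and -5.07 in se-2 and was well above background on no cbp20 cbp80 array, which makes it at least 2.02-fold higher in se-2. AT1G55525, at -5.33, -5.59 and -5.31 in se-2, was at least 1.58-fold higher on the same ground. The fitted differences, which used cbp20 cbp80 signals not well above background, were 1.75 and 1.33 (adjusted p = 0.0112 and 0.00523 by limma). The bounds themselves were not tested. With normexp background correction both differences turned, to -0.37 and -0.32. AT3G05152, measured on 1 cbp20 cbp80 array, was 0.90 ± 0.27 higher, turned to -0.37 likewise, and lost its call when any 1 of the se-2 arrays or cbp20 cbp80 replicate 2 or 3 was left out (adjusted p = 0.0535 to 0.109).

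Brighter loci gave firmer values. AT3G27884 stood at -2.17, -2.21 and -2.26 in se-2 and at -3.03, -3.19 and -3.26 in cbp20 cbp80, a difference of 0.95 ± 0.075 (1.93-fold, adjusted p = 0.000426 by limma). AT2G44798, which overlaps AT2G44800, stood at -2.46, -2.58 and -2.56 in se-2, at -3.37, -3.25 and -3.75 in cbp20 cbp80 and at -1.26, -1.29 and -1.16 in WT. It was the highest in WT on every array and 0.93 ± 0.14 higher in se-2 than in cbp20 cbp80 (adjusted p = 0.00372). AT2G15128 differed by 0.77 ± 0.059 (adjusted p = 0.000389), and all 3 of its probes were called.

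By class, 14 of 86 tested ncRNAs were higher in se-2 than in cbp20 cbp80 and 42 were lower, and of 116 tested lncRNAs 16 were higher and 29 lower. The shares called were 65.1% and 38.8%, beside 46.9% over all transcripts. Of the 90 tested loci with no overlapping protein-coding record 15 were higher and 42 lower (63.3% called), and of the 126 with one 18 were higher and 34 lower (41.3% called). The difference between these classes was not tested. These class counts were made with the reported scaling only, while the split of calls between the mutants followed the scaling. Signal moved with it: the median level was -0.58 in ncRNAs and -2.33 in lncRNAs, and the median SE of the difference was 0.0559 and 0.0663. The median size of the difference was 0.264 and 0.213.

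Loci that overlap a protein-coding record were among those called against WT as well, but at a share near that of the loci without overlap. Of the 126 loci with overlap se-2 had 4 higher and 1 lower (3.97%) and cbp20 cbp80 had 3 higher and 2 lower (3.97%), beside 6.82% and 5.6% of all transcripts in either direction. Of the 90 without overlap se-2 had 2 higher and 2 lower (4.44%) and cbp20 cbp80 had 3 higher and 1 lower (4.44%). Of the 30 tested loci inside a protein-coding record se-2 had 0 higher and 1 lower (3.33%), against 4.3% of the 186 not inside. In cbp20 cbp80 these 30 had 1 higher and 2 lower (10%, against 3.23%), namely AT4G25885, AT3G22121 and AT5G64572. The difference was not tested. In 8 of the 13 called loci a protein-coding record overlaps, and signal from it could not be told apart here, since the array's probes were not placed on the genome.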

How the data were processed

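Noncoding transcripts were measured in total RNA of 9 seedling samples with one-colour arrays, 1 array per sample and 3 biological replicates per genotype, per the labels. Each deposited scanner file gives the intensity of every spot, made with Agilent Feature Extraction 10.5.1.1 (WT replicates 1 and 2) or 10.7.3.1 (the other arrays), per the file headers. Its processed signal is background-subtracted and not normalized between arrays, and WT replicate 3 was extracted with another software protocol than the rest, per the file headers. The authors' deposited value table is in log2 values, with column medians of 0.322 to 0.323, highest values of 17.5 to 17.9 and rank correlations of 0.988 to 1 with the processed signal. Its scale was read from the values and its centring is unknown, and it served as an alternative.

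Control spots and outlier spots (0 to 39 per array) were left out, and no spot was saturated. The log2 processed signal of each array had the 75th percentile of the 1835 probes that were well above background on every array subtracted. Tested were 3103 probes of 1715 transcripts, those measured well above background by every array of at least 1 genotype, with 23 values missing and unimputed, and a locus was represented by its brightest probe. Where a genotype had no array well above background, its dim arrays were given a floor. The probe took its own signal or, where higher, that of the dimmest probe marked well above background. The fold is then a bound if every array of the other genotype was measured.

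Mutants were compared with WT in 1 fit of 9 arrays by limma 3.58.1 in R 4.3.3, with the slide as a random block (duplicateCorrelation, consensus 0.948). A fit without the slide treats arrays of 1 slide as independent and was an alternative. The block assumes 1 correlation for all probes and takes its degrees of freedom from arrays, not slides, and p-values can therefore be too small. The mutants were compared in a fit of their 6 arrays. Calls needed an adjusted p under 0.05 (two-sided, Benjamini-Hochberg over all probes tested), and ± gives limma's SE (n = 3 arrays per genotype). The fits were also run on simulated data with planted changes. Only the recovery of these changes in the fit of the 6 mutant arrays was held to a limit. No limit was set for false calls or for the fits against WT.

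Named were loci with a symbol or on a list of described noncoding RNAs, small or protein-coding classes, up to 6 called loci per direction against WT, up to 8 per direction between mutants, up to 5 per direction called in both mutants without the slide, the 5 brightest and the 2 brightest per class. A few others were chosen after their values were seen: AT3G13061 and AT3G61198 for their spread and AT4G36052 for its detection. The loci and lists were chosen with earlier results of these data known. The alternatives were quantile normalization, median scaling, the percentile over all probes, normexp (offset 50) on the median signal, as no mean signal was in the files used, the deposited values, other filters on dim probes, the mean of a locus's probes, the replicate number as a block, all 9 arrays for the mutants and each array left out. Of the loci 255 of 259 matched the reference table, which gave names, classes and record positions. Overlaps and neighbours were taken from those positions, without strand. Plots used Python 3.11.15 and matplotlib 3.10.9.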

Additional observations from a re-analysis of the deposited data

Results flagged for a closer look

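AT3G58795, a lncRNA that overlaps the galacturonosyltransferase gene GAUT15, was picked out because all se-2 arrays lay above all WT arrays and all cbp20 cbp80 arrays below them. It stood at -3.11, -3.15 and -3.26 in WT, at -2.85, -2.89 and -2.77 in se-2 and at -3.52, -3.47 and -3.66 in cbp20 cbp80. The difference of se-2 from cbp20 cbp80 was 0.716 on the log2 scale (SE 0.0683, n = 3) (limma adjusted p = 0.000845), and all 3 probes were called. The choice had already placed every se-2 array above every cbp20 cbp80 array, so this difference is no separate support for the pattern. How many of all transcripts show the pattern was not counted. Against WT, se-2 at 0.34 ± 0.41 and cbp20 cbp80 at -0.38 ± 0.41 did not pass (adjusted p = 0.817 and 0.783 by limma). With normexp background correction the difference between the mutants was not called.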

How the results depend on the processing

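Differences from WT rest on 3 WT arrays of 3 slides, and the arrays' number and the distance of a signal from background limit what they show. Of the values of named loci under alternatives, 711 kept direction and side of the threshold, 100 lost a call, 37 gained one and 6 turned. Those that turned were, with normexp background correction, AT2G26692 in se-2 against WT (-0.0518) and, in se-2 against cbp20 cbp80, AT1G55525 (-0.32), AT3G04765 (-0.20), AT3G05152 (-0.37) and AT3G14185 (-0.37), and, with the percentile over all probes, AT3G18535 (0.10) in the same comparison. The cause was not tested.

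The counts of se-2 against WT, 6 higher and 3 lower, became 17 and 1 with the percentile over all probes, 32 and 53 without the slide, and 3 and 1 with no filter on dim probes. Normexp gave 15 lower and the mean of a locus's probes 5 lower. Leaving out 1 array gave 3 to 17 higher and 3 to 21 lower: without WT replicate 2 the counts were 17 and 13, and without WT replicate 3 they were 11 and 21. Without WT replicate 1, se-2 replicate 2 or se-2 replicate 3 there were 3 higher. Of all 3103 probes tested, 155 were higher and 50 lower as reported. These became 358 and 13 with the percentile over all probes, 624 and 649 without the slide and 97 and 139 with normexp. With no filter they were 119 and 64 of 15013 probes. They were 298 and 147 without WT replicate 2, and 267 and 162 without WT replicate 3. Without WT replicate 1, se-2 replicate 2 or se-2 replicate 3, 151, 133 and 123 were higher.

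Counts of cbp20 cbp80 against WT, also 6 and 3, became 11 and 1 with the percentile over all probes, 38 and 48 without the slide, and 2 and 1 with no filter. Leaving out 1 array gave 4 to 21 higher and 1 to 13 lower, with 21 and 6 without WT replicate 2, 12 and 13 without WT replicate 3 and 1 lower without cbp20 cbp80 replicate 1. Of all 3103 probes tested, 145 were higher and 28 lower as reported. These became 237 and 14 with the percentile over all probes and 748 and 507 without the slide. They were 298 and 98 without WT replicate 2, and 310 and 116 without WT replicate 3. Without cbp20 cbp80 replicate 1 the lower probes were 21. With no filter 65 and 8 of 15013 probes were called. Between the mutants, 33 higher and 77 lower became 70 and 45 with median scaling, 20 and 151 with normexp, 92 and 20 with all probes setting the percentile, 50 and 37 with the deposited values, 49 lower with quantile normalization and 20 higher with no filter. The 45 loci with all se-2 arrays above all cbp20 cbp80 arrays became 74 with quantile normalization, where the backgrounds were 15% and 28.1%.

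The labels number the replicates alike in each genotype, but same-numbered arrays did not deviate together (correlations of -0.0483 to 0.0297), so the numbers pair nothing here. The replicate number as a block gave 3 higher and 2 lower in se-2, 2 and 2 in cbp20 cbp80, and 30 and 57 between the mutants. Of all 3103 probes tested it gave 84 and 17, 38 and 5, and 349 and 857 in this order. The median change of all probes tested, in se-2 against WT, was 0.0024, while normexp gave -0.73 and the percentile over all probes 0.95.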
